A study of Homo sapiens with 9 samples.

Results

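The glycolysis and hypoxia response genes examined here are 40 genes chosen by symbol: glucose and lactate transporters, the enzymes from hexokinase to lactate dehydrogenase, the HIF subunits with some of their regulators, and widely used transcriptional targets of HIF. All 40 were found once among the 78894 gene identifiers of each file, and 39 of them reached 1 TPM, a unit that scales transcripts for length and for the library total, in at least 2 libraries and could be tested. They were followed in CAL27, an established cell line from a human tongue squamous cell carcinoma, by bulk RNA-seq of polyadenylated RNA from 3 Control libraries and from CRISPR-edited cells labelled A2ko, A8ko and C9ko, with 2 files for each knockout. All cells were of this 1 line and received no treatment. They were grown in DMEM with serum, and no oxygen level is labelled. The labels do not name the sequence that each knockout removes, do not say whether a knockout is 1 clone or a pool, and do not say whether replicates came from separate cultures, so p-values measure only the spread between these libraries. The 2 A2ko files hold identical values, as do the 2 A8ko files, and each pair was counted as 1 library. This leaves 7 distinct libraries (3 Control, 1 A2ko, 1 A8ko and 2 C9ko). Only C9ko against Control has replicates on both sides. For A2ko and A8ko the values below are set against the range of the Control libraries, with no test.

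Glycolysis splits glucose into pyruvate in the cytosol, and lactate dehydrogenase can pass the electrons on to form lactate, which monocarboxylate transporters export with a proton. Hypoxia-inducible factors (HIF) are dimers of an oxygen-labile alpha subunit, encoded by HIF1A or EPAS1, and a stable beta subunit. With oxygen present, prolyl hydroxylases of the EGLN family mark the alpha subunit, VHL binds it and the proteasome removes it. When oxygen falls the dimer persists and raises transcription of glycolytic enzymes, of carbonic anhydrase 9, of VEGFA and of many other genes. This control acts mostly on the protein, which RNA-seq does not measure.

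In C9ko, 21 of the 39 tested genes passed limma's moderated test at an adjusted p under 0.05, against 29.5% of all 17100 genes tested. At an unadjusted p under 0.05 there were 26, against 41.6% of all genes. Of the 21, 17 rose (22.0% of all genes did) and 4 fell (7.42% of all genes did). The genes that rose included the pH regulator CA9, the collagen hydroxylases P4HA1 and P4HA2 and the lactate exporter SLC16A3. The mitophagy receptor BNIP3, VEGFA and both HIF alpha subunits also rose, but the HIF1A call was lost under 8 of 13 alternative settings. The genes that fell were CA12, ADM, NDRG1 and DDIT4. When libraries were rescaled by median-of-ratios size factors, 24 genes were called, 15 higher and 9 lower, so the share of higher calls depends on the scaling. In A8ko, 3 genes lay above every Control library and at least 1 log2 unit above the Control mean (CA9, VEGFA and P4HA2), against 2.05% of all genes in that direction. None lay as far below, against 2.68% of all genes. In A2ko, ALDOC and ENO2 lay as far above (3.54% of all genes) and CA12 and NDRG1 as far below (1.53% of all genes). When each Control library was held against the other 2 in the same way, no gene of the 39 lay that far out, against 0.614%, 0.661% and 0.643% of all genes.

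Smaller differences had a different balance in the 3 knockouts. In A2ko, 22 of the 39 genes lay below all Control libraries by any amount (26.3% of all genes) and 12 above (50.4% of all genes). In A8ko, 5 lay below (26.4% of all genes) and 32 above (46.9% of all genes). In C9ko, with both libraries required, 7 lay below (16.4% of all genes) and 25 above (41.1% of all genes). The C9ko balance depended on the scaling: after median-of-ratios scaling 13 lay below (27.7% of all genes) and 19 above (28.3%), and after scaling without mitochondrial genes 12 lay below (24.4%) and 19 above (31.4%). In A8ko the median-of-ratios counts were 7 below (35.8%) and 27 above (36.2%), and in A2ko 25 below (37.9%) and 10 above (38.9%). The mitochondrial share of TPM moved with the groups: it was 23.1% to 26.9% in Control and 25.2% in A2ko, but 20.6% in A8ko and 20.2% and 17.9% in C9ko. Its part in the results was not tested beyond that rescaling. For A2ko, A8ko and C9ko in turn, the median log2 difference of the 39 genes was -0.10, 0.30 and 0.24, while the median over all tested genes was 0.12, 0.09 and 0.11. Without the first Control library the A2ko median was -0.05. Relative to all genes, with every library in, the medians were -0.22, 0.21 and 0.13. Here and below a log2 difference is a difference of log2(TPM + 1), which understates the change of genes at low TPM. All these comparisons share the same 3 Control libraries, so agreement between knockouts is in part set by them.

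**Figure D1:**
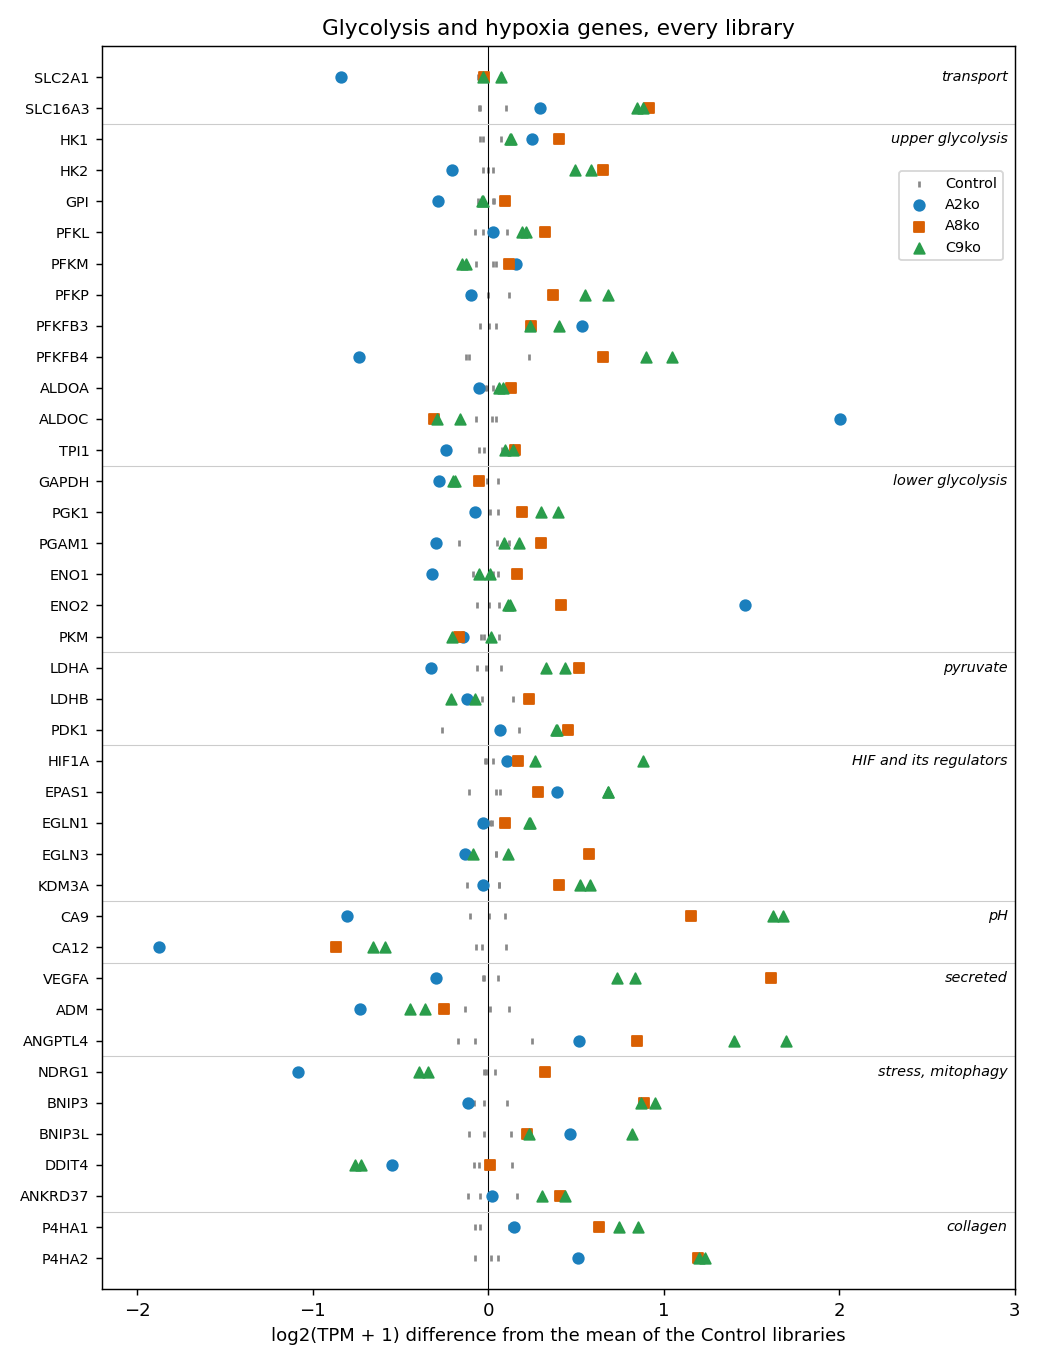
Difference in log2(TPM + 1) from the mean of the 3 Control libraries (horizontal axis) for the 39 tested genes, grouped by role. Grey ticks are Control libraries, blue circles A2ko, orange squares A8ko and green triangles the 2 C9ko libraries. ALDOC stands far to the right in A2ko at 2.01, CA12 far to the left at -1.88, and most orange and green symbols lie to the right of 0.

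Among transporters, SLC2A1 encodes GLUT1, the main glucose carrier of squamous epithelium. It was at 277.6, 252.8 and 259.4 TPM in the Control libraries, 146.8 TPM in A2ko, 258.8 TPM in A8ko, and 257.3 and 276.3 TPM in C9ko. On the TPM scale only the A2ko library stood apart, at a log2 difference of -0.84. The C9ko difference was 0.02 (SE 0.07, limma adjusted p = 0.855). After median-of-ratios scaling A8ko and C9ko also lay below all Control libraries, at -0.12 and -0.11. After scaling without mitochondrial genes they did so too, at -0.09 and -0.08. The C9ko difference passed under neither scaling (limma adjusted p = 0.153 and 0.299). SLC2A3, which encodes the neuronal carrier GLUT3, stayed at or below 0.18 TPM in every library and was not tested. SLC16A3 encodes MCT4, a lactate exporter of glycolytic cells. Its values were 51.1, 45.8 and 46.0 TPM in Control, 58.6 TPM in A2ko, 90.5 TPM in A8ko, and 86.2 and 88.6 TPM in C9ko. All 4 knockout libraries lay above Control, and the rise in C9ko was 0.86 (SE 0.07, limma adjusted p = 0.000251).

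In the upper part of glycolysis, from hexokinase to triose phosphate isomerase, 4 of 11 genes rose in C9ko, against 22.0% of all genes, and none fell, against 7.42%. After median-of-ratios scaling PFKM, ALDOC and GPI were called lower (GPI at -0.17, limma adjusted p = 0.0464). HK2, the inducible hexokinase that phosphorylates glucose at the mitochondrial surface, was at 29.6, 29.1 and 28.5 TPM in Control, 25.0 TPM in A2ko, 46.4 TPM in A8ko, and 41.4 and 44.1 TPM in C9ko. Its rise in C9ko was 0.54 (SE 0.06, limma adjusted p = 0.0012). PFKP, the platelet isoform of the phosphofructokinase that commits sugar to glycolysis, was at 58.6, 53.8 and 63.8 TPM in Control, 54.6 TPM in A2ko, 75.9 TPM in A8ko, and 94.6 and 86.4 TPM in C9ko, a rise of 0.62 in C9ko (SE 0.09, limma adjusted p = 0.0026). The other 2 isoforms did not pass on the TPM scale: the C9ko difference was 0.20 for PFKL (limma adjusted p = 0.0796) and -0.14 for PFKM (limma adjusted p = 0.149). PFKM did pass as lower after median-of-ratios scaling (-0.27, limma adjusted p = 0.00753) and after scaling without mitochondrial genes (-0.24, limma adjusted p = 0.0113). HK2 and PFKP thus were the hexokinase and phosphofructokinase genes past the threshold in C9ko, and in A2ko neither was above Control.

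PFKFB3 and PFKFB4 encode bifunctional enzymes that set the level of fructose 2,6-bisphosphate, the activator of phosphofructokinase. PFKFB4 was at 7.78, 10.2 and 7.89 TPM in Control, 4.75 TPM in A2ko, 14.0 TPM in A8ko, and 16.9 and 18.8 TPM in C9ko. A2ko was below all Control libraries, and A8ko and C9ko were above them. The C9ko rise was 0.97 (SE 0.13, limma adjusted p = 0.00183). The 20 tested genes nearest to PFKFB4 on chromosome 3 had a median C9ko difference of 0.87, and 17 of them were called higher. PFKFB3 rose by 0.32 in C9ko (SE 0.08, limma adjusted p = 0.0213). It was at 22.1, 20.7 and 21.5 TPM in Control, 31.4 TPM in A2ko, 25.5 TPM in A8ko, and 25.4 and 28.6 TPM in C9ko, so that all knockout libraries lay above Control. Without the second C9ko library the PFKFB3 difference was 0.24 with a limma adjusted p of 0.127.

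Aldolase C, the brain-enriched isoform, gave the greatest difference among the 39 genes in A2ko. ALDOC (ENSG00000109107, chromosome 17, 28573115 to 28577264, GRCh38) was at 69.8, 64.4 and 68.7 TPM in Control, 274.5 TPM in A2ko, 54.3 TPM in A8ko, and 55.0 and 60.4 TPM in C9ko. The A2ko level was 4.02 times the Control level on the TPM + 1 scale, and the other 3 knockout libraries were below all Control libraries. The C9ko difference of -0.23 did not pass (SE 0.07, limma adjusted p = 0.0534), though it did when scaled by median-of-ratios (-0.36, limma adjusted p = 0.00287). ALDOA, the isoform that made up most aldolase transcripts, was at 2347, 2268 and 2286 TPM in Control, 2214 TPM in A2ko, 2514 TPM in A8ko, and 2397 and 2441 TPM in C9ko, and its C9ko difference did not pass (0.07, limma adjusted p = 0.49). HK1, GPI and TPI1 did not pass in C9ko, with differences from -0.03 to 0.13.

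In the lower part, from GAPDH to pyruvate kinase, PGK1 alone of 6 genes passed in C9ko, against 29.5% of all genes. PGK1 encodes phosphoglycerate kinase, the first ATP-forming step. It was at 212.3, 195.6 and 206.1 TPM in Control, 193.8 TPM in A2ko, 233.5 TPM in A8ko, and 251.8 and 269.7 TPM in C9ko, a C9ko rise of 0.35 (SE 0.07, limma adjusted p = 0.00936). Without the second C9ko library it was 0.30, with a limma adjusted p of 0.0661. GAPDH, often used as a reference gene, was the most abundant of all 40: 7858, 7309 and 7523 TPM in Control, 6218 TPM in A2ko, 7302 TPM in A8ko, and 6588 and 6636 TPM in C9ko. Every knockout library lay below every Control library, A8ko only just so, and the C9ko difference was -0.19 (SE 0.09, limma adjusted p = 0.162). It passed as lower after median-of-ratios scaling (-0.33, limma adjusted p = 0.0388).

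ENO2, the neuronal enolase, was at 11.8, 12.3 and 11.2 TPM in Control, 34.2 TPM in A2ko, 16.0 TPM in A8ko, and 12.8 and 12.9 TPM in C9ko. All knockout libraries lay above Control, with A2ko furthest at 1.46, but the C9ko difference of 0.12 did not pass (limma adjusted p = 0.262). The ubiquitous enolase ENO1 went the other way in A2ko, at 2689 TPM against 3162 to 3492 TPM in Control. In A2ko, 5 of the 6 lower genes (GAPDH, PGK1, PGAM1, ENO1 and PKM) were below all Control libraries, against 26.3% of all genes, and ENO2 was the exception. In A8ko, 4 of the 6 were above them (PGK1, PGAM1, ENO1 and ENO2), against 46.9% of all genes.

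At the fate of pyruvate, LDHA encodes the lactate dehydrogenase subunit that favours lactate. It was at 1818, 1655 and 1716 TPM in Control, 1378 TPM in A2ko, 2475 TPM in A8ko, and 2174 and 2340 TPM in C9ko. A2ko was below and the other knockouts above all Control libraries, and the C9ko rise was 0.38 (SE 0.08, limma adjusted p = 0.0136). Without the second C9ko library it was 0.33, with a limma adjusted p of 0.0947. In A8ko the 20 tested genes around LDHA on chromosome 11 had a median difference of 0.58, against 0.52 for LDHA itself, and in C9ko the neighbours' median was 0.37. LDHB, the heart subunit, and PDK1, a kinase that shuts pyruvate dehydrogenase, did not pass in C9ko, at -0.14 (limma adjusted p = 0.304) and 0.39 (limma adjusted p = 0.075). LDHB passed as lower after median-of-ratios scaling (-0.27, limma adjusted p = 0.0429).

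**Figure D2:**
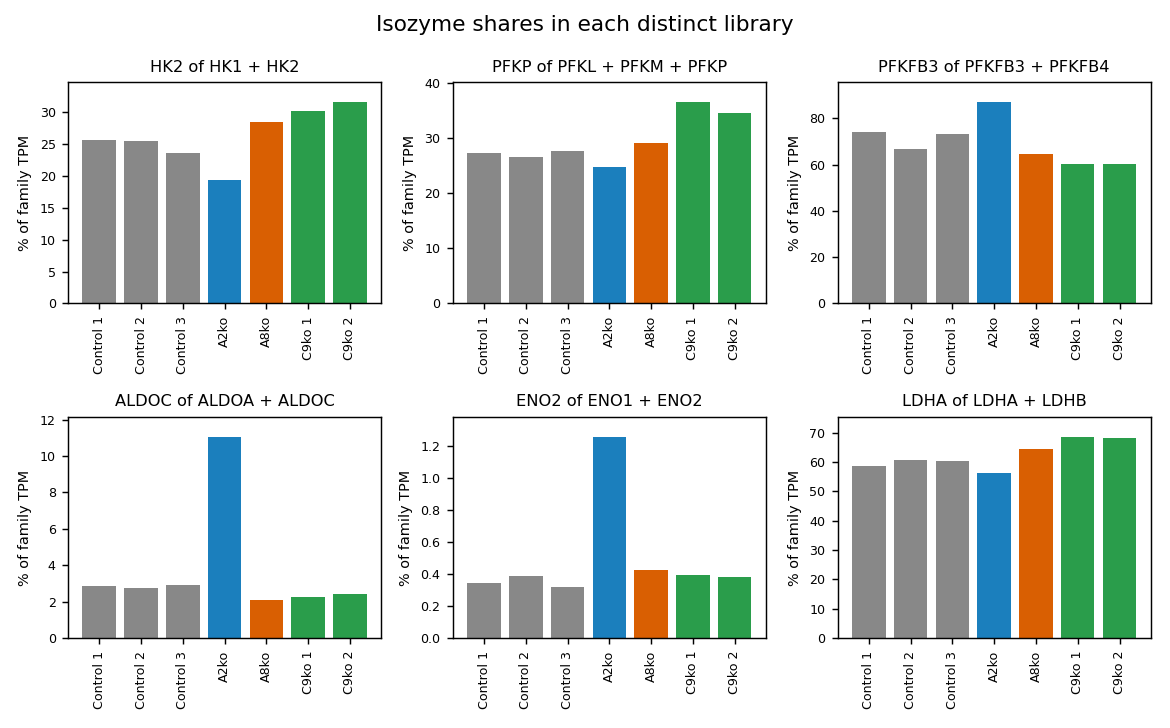
Share of 1 isozyme in the summed TPM of the isozymes named above its panel (vertical axis, percent, from 0) in each of the 7 distinct libraries, 1 bar per library. The sums leave out other isozymes, such as ENO3 and PFKFB2. The ALDOC share is 11.0% in A2ko and under 3% elsewhere, and the LDHA and PFKP shares are highest in C9ko.

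TPM is scaled for transcript length, so isozymes can be compared within a library, and their ratio does not depend on how libraries are scaled. ALDOC made up 2.89%, 2.76% and 2.92% of aldolase A and C transcripts in Control, against 11.0% for A2ko, 2.11% for A8ko and 2.24% and 2.41% for the C9ko libraries. LDHA made up 58.8%, 60.6% and 60.3% of lactate dehydrogenase transcripts in Control, against 56.4% for A2ko, 64.6% for A8ko and 68.5% and 68.1% for the C9ko libraries. The HK2 share of HK1 and HK2 was 23.6% to 25.6% in Control, against 19.4% for A2ko, 28.5% for A8ko and 30.2% and 31.5% for the C9ko libraries. For each of these 3 shares, the 2 C9ko libraries lay outside the Control range on one side. The PFKFB3 share of PFKFB3 and PFKFB4 was 66.9% to 73.9% in Control, with A2ko above at 86.9%, A8ko below at 64.5%, and both C9ko libraries below at 60.1% and 60.4%.

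The 17 genes for the enzymes from hexokinase to lactate dehydrogenase (the bifunctional PFKFB enzymes left out) summed to 22656, 21179 and 22171 TPM in Control, 19034 TPM in A2ko, 23373 TPM in A8ko, and 21093 and 22130 TPM in C9ko. The C9ko sums overlapped Control. Among nuclear transcripts alone, where the differing mitochondrial share drops out, the enzymes made up 2.90% to 2.95% in Control, with A2ko at 2.55%, A8ko at 2.95% and the C9ko libraries at 2.64% and 2.69%. On that scale both C9ko libraries lay below Control. Their median log2 difference relative to all genes was -0.24 for A2ko, 0.10 for A8ko and 0.01 for C9ko.

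Of the 5 genes of the HIF regulation group, 4 rose in C9ko, against 22.0% of all genes. EPAS1 encodes HIF-2 alpha. It was at 46.3, 41.6 and 47.2 TPM in Control, 59.4 TPM in A2ko, 54.9 TPM in A8ko, and 72.9 and 72.7 TPM in C9ko, a C9ko rise of 0.68 (SE 0.07, limma adjusted p = 0.000796). HIF1A, which encodes HIF-1 alpha, was at 410.2, 411.0 and 423.4 TPM in Control, 447.0 TPM in A2ko, 466.5 TPM in A8ko, and 500.2 and 764.0 TPM in C9ko. Every knockout library was above Control, but the C9ko libraries differed from each other by more than the first differed from Control. The C9ko rise of 0.57 (SE 0.16, limma adjusted p = 0.0386) became 0.27 without the second C9ko library (limma adjusted p = 0.0815), and it did not pass after median-of-ratios scaling either (0.44, limma adjusted p = 0.077). An antisense gene, HIF1A-AS3, overlaps HIF1A, and whether strand was used in quantification is not given in the sources used here.

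KDM3A, a histone demethylase and HIF target, was at 17.4, 15.2 and 17.4 TPM in Control, 16.3 TPM in A2ko, 22.3 TPM in A8ko, and 24.4 and 25.4 TPM in C9ko. It rose in C9ko by 0.55 (SE 0.08, limma adjusted p = 0.00327). EGLN1, the main oxygen sensor of the pathway, was at 19.9, 19.1 and 19.7 TPM in Control, 19.1 TPM in A2ko, 21.0 TPM in A8ko, and 23.1 and 23.2 TPM in C9ko. It rose in C9ko by 0.24 (SE 0.06, limma adjusted p = 0.0335), a call that was lost without any 1 of the C9ko or Control libraries, with adjusted p-values of 0.0638 to 0.131. EGLN3, a prolyl hydroxylase that HIF induces, did not pass in C9ko (0.01, limma adjusted p = 0.915). It was above all Control libraries in A8ko, at 35.9 TPM against 22.4 to 24.6 TPM.

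Short stretches before the gene starts are shown for CA9, BNIP3 and P4HA2, which were higher in A8ko and C9ko, and for ALDOC and ENO2, which were higher in A2ko. They let the letters of the HIF response element be seen beside the values. Each is the 250 bases before the RefSeq start (GRCh38.p14), 5′ to 3′ on the gene's strand, with capitals marking every match to ACGTG or GCGTG on either strand, and CACGTG counts as 2 matches. The positions are chr9:35673678-35673927 (+) for CA9, chr10:131981924-131982173 (-) for BNIP3, chr5:132227092-132227341 (-) for P4HA2, chr17:28576896-28577145 (-) for ALDOC and chr12:6914330-6914579 (+) for ENO2. The RefSeq starts of all 5 genes lie inside the genes as GENCODE draws them, so these windows overlap the GENCODE genes in part or in whole.
CA9: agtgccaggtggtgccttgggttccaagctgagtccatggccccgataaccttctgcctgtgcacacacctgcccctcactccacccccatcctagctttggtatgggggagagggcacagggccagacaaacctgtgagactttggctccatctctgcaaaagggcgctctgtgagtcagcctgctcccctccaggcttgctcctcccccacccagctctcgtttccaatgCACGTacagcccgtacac
BNIP3: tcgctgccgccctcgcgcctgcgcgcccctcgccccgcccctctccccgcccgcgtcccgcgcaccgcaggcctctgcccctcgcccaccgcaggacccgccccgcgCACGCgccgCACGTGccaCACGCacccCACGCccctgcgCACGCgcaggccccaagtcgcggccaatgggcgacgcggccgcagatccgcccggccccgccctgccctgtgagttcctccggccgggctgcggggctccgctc
P4HA2: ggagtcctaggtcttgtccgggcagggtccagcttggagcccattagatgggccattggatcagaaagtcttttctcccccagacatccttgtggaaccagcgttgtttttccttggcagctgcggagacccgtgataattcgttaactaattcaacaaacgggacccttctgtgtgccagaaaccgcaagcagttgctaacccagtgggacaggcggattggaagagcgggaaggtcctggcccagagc
ALDOC: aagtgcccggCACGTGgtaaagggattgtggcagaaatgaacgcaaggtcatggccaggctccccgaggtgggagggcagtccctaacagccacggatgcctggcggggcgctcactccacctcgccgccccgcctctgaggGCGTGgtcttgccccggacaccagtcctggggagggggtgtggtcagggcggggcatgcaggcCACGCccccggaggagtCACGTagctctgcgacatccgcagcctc
ENO2: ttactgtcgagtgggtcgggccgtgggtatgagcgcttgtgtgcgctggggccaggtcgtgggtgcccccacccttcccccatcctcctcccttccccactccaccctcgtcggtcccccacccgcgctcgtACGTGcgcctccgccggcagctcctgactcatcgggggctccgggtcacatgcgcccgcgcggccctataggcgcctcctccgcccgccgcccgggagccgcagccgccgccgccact
CA9 has 1 match, which begins at position -18 relative to the gene start. BNIP3 has 6 matches, ALDOC 5, ENO2 1, and P4HA2 none in this window. Genes that fell in C9ko have matches in their windows too: DDIT4 has 3, CA12 has 1 and ADM has 1. Of the 40 genes 36 were found in the RefSeq promoter table, all but SLC2A3, VEGFA, NDRG1 and BNIP3L. ACGTG occurred in 15 of these 36 (41.7%), against 18.7% of 27305 promoters of the same length. GCGTG occurred in 14 (38.9%), against 31.9% of the 27305. A match is a run of letters and not a measured binding site.

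Carbonic anhydrases on the cell surface keep acid outside the cell. CA9 (ENSG00000107159, chromosome 9, 35673856 to 35681159, GRCh38), a classical HIF-1 target, was at 19.5, 16.9 and 18.3 TPM in Control (mean 18.2 ± 1.34 SD, n = 3), 9.99 TPM in A2ko, 41.8 TPM in A8ko, and 58.2 and 60.6 TPM in C9ko. No groups overlapped: A2ko was below Control at -0.81, and A8ko and C9ko were above at 1.16 and 1.65. The C9ko rise had an SE of 0.08 and a limma adjusted p of 3.48e-05. Genes around CA9 on chromosome 9 were higher in C9ko too, with a median of 0.58 over the 20 nearest, of which 13 were called higher, and CA9 exceeded that median by 1.07. In A8ko the same neighbours had a median of -0.02. The single CA9 match shown above lies next to the gene start. The gene ARHGEF39 overlaps CA9 on the other strand.

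CA12, the related carbonic anhydrase 12, went down in the same libraries. It was at 4.10, 3.98 and 4.60 TPM in Control, 0.423 TPM in A2ko, 1.87 TPM in A8ko, and 2.47 and 2.32 TPM in C9ko. All 4 knockout libraries were below Control, A2ko furthest at -1.88. In C9ko it fell by 0.62 (SE 0.12, limma adjusted p = 0.00846). In A8ko the difference was -0.86, and 16 of the 20 nearest tested genes on chromosome 15 were also below all Control libraries, with a median of -0.25.

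**Figure D3:**
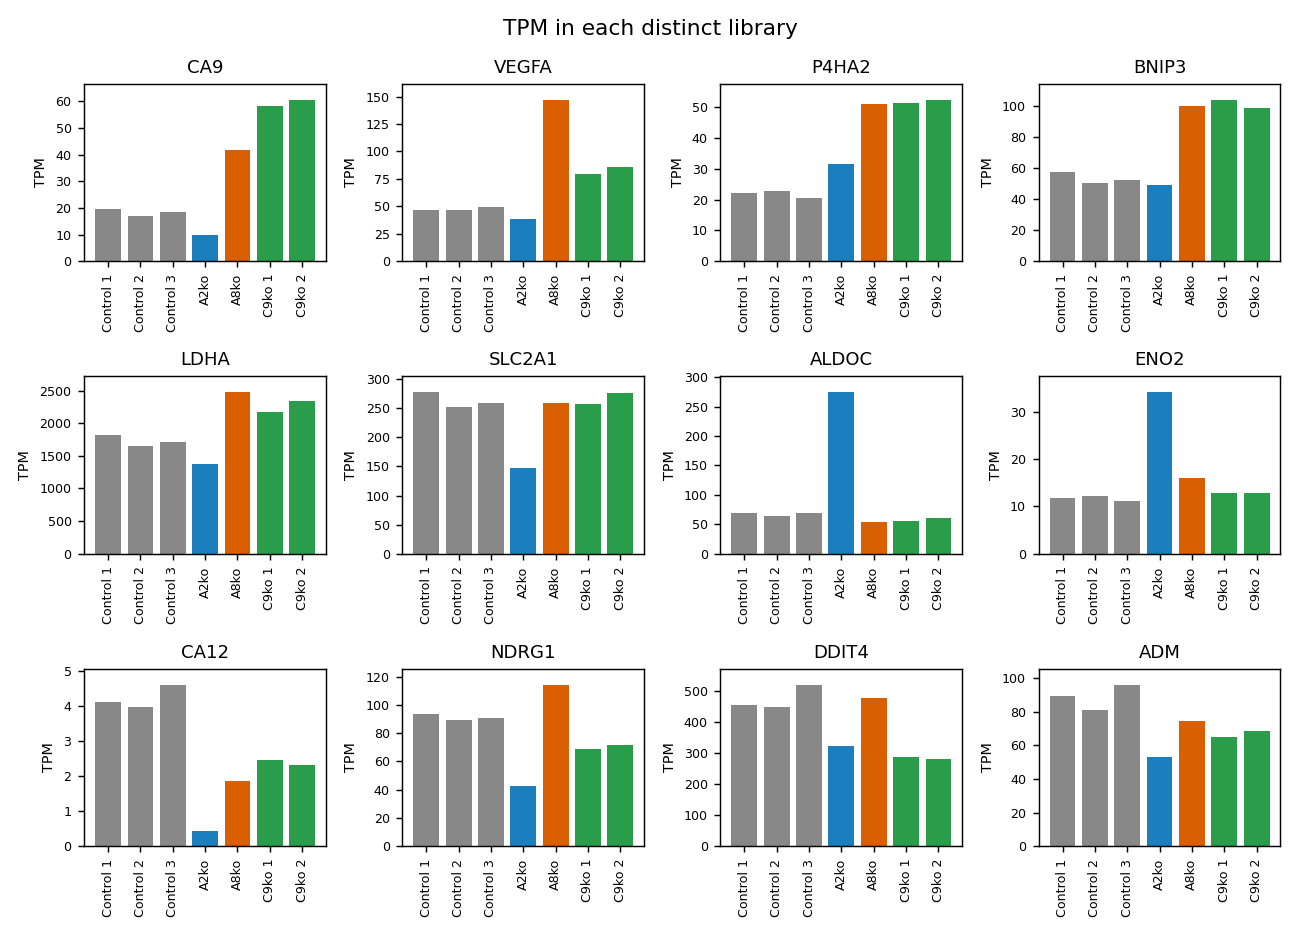
TPM (vertical axis, linear from 0, a scale of its own for each gene) of 12 genes in each of the 7 distinct libraries, 1 bar per library. CA9, VEGFA, P4HA2, BNIP3 and LDHA are highest in A8ko or C9ko, SLC2A1, CA12, NDRG1 and ADM are lowest in A2ko, and DDIT4 is lowest in C9ko.

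Of the 3 secreted factors, VEGFA, the main endothelial growth factor, was at 46.4, 46.6 and 49.4 TPM in Control (mean 47.5 ± 1.69 SD, n = 3), 38.4 TPM in A2ko, 147.1 TPM in A8ko, and 79.6 and 85.6 TPM in C9ko. The A8ko library was the highest, at 1.61, and exceeded both C9ko libraries. The C9ko rise was 0.79 (SE 0.07, limma adjusted p = 0.000278). ANGPTL4, an inhibitor of lipoprotein lipase, was at 1.06, 1.21 and 1.75 TPM in Control, 2.32 TPM in A2ko, 3.18 TPM in A8ko, and 5.13 and 6.52 TPM in C9ko, where it rose by 1.55 (SE 0.17, limma adjusted p = 0.000818). ADM, which encodes the vasodilator peptide adrenomedullin, was below all Control libraries in every knockout. Its values were 89.3, 80.8 and 96.0 TPM in Control, 53.0 TPM in A2ko, 74.3 TPM in A8ko, and 64.8 and 68.6 TPM in C9ko. In C9ko it fell by 0.40 (SE 0.09, limma adjusted p = 0.0133). Without the first C9ko library the difference was -0.36, with a limma adjusted p of 0.0713.

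The 5 stress and mitophagy genes split. BNIP3 (ENSG00000176171, chromosome 10, 131966455 to 131982013, GRCh38) encodes a receptor that marks mitochondria for autophagy and was at 57.8, 50.5 and 52.6 TPM in Control, 49.3 TPM in A2ko, 100.1 TPM in A8ko, and 104.3 and 98.8 TPM in C9ko. It rose in C9ko by 0.91 (SE 0.08, limma adjusted p = 0.000278), and A8ko stood at 0.89. Its 44 named pseudogenes summed to 1.69 to 3.64 TPM per library. BNIP3L, a related receptor, did not pass (0.53, limma adjusted p = 0.0576), with the C9ko libraries at 26.9 and 41.0 TPM. In both HIF1A and BNIP3L the second C9ko library was well above the first.

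DDIT4 encodes REDD1, a stress-induced brake on mTORC1. It was at 457.3, 449.2 and 521.2 TPM in Control, 324.2 TPM in A2ko, 477.8 TPM in A8ko, and 286.6 and 279.9 TPM in C9ko. A8ko was inside the Control range and the others below it, and in C9ko the gene fell by 0.74 (SE 0.08, limma adjusted p = 0.000859). NDRG1, a hypoxia- and differentiation-induced gene, was at 93.6, 89.6 and 90.6 TPM in Control, 42.5 TPM in A2ko, 114.2 TPM in A8ko, and 69.1 and 71.7 TPM in C9ko. It fell in C9ko by 0.37 (SE 0.06, limma adjusted p = 0.00423), was lower still in A2ko at -1.08, and was above Control in A8ko at 0.32. ANKRD37 did not pass in C9ko (0.37, limma adjusted p = 0.0913).

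P4HA1 and P4HA2 encode the catalytic subunits of collagen prolyl 4-hydroxylase, and both rose. P4HA2 (ENSG00000072682, chromosome 5, 132191838 to 132295315, GRCh38) was at 22.0, 22.7 and 20.6 TPM in Control (mean 21.8 ± 1.07 SD, n = 3), 31.4 TPM in A2ko, 51.0 TPM in A8ko, and 51.3 and 52.5 TPM in C9ko. All knockout libraries were above Control, and A8ko and C9ko were nearly level. The C9ko rise was 1.22 (SE 0.07, limma adjusted p = 6.14e-05). P4HA1 was at 43.4, 38.6 and 37.7 TPM in Control, 44.3 TPM in A2ko, 62.3 TPM in A8ko, and 67.5 and 72.7 TPM in C9ko, a C9ko rise of 0.80 (SE 0.08, limma adjusted p = 0.000627). The antisense gene P4HA2-AS1 and PDLIM4 overlap P4HA2 on the other strand.

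Placing the 3 knockouts side by side, 10 of the 39 genes lay below all Control libraries in A2ko and above them in both A8ko and C9ko, against 7.26% of all genes. They were HK2, PFKFB4, ALDOA, TPI1, PGK1, LDHA, EGLN1, CA9, VEGFA and BNIP3. EGLN1 was in it by a hair, at 19.0944 TPM in both A2ko and the second Control library to the digits kept. ALDOA and TPI1 left this pattern, and PFKP joined it, under both other scalings, which gave 9 genes each (6.81% and 5.45% of all genes). Under median-of-ratios scaling EGLN1 left it too and KDM3A joined it. Another 10 genes lay above Control in all 3 knockouts, against 17.0% of all genes, among them SLC16A3, EPAS1, ANGPTL4 and P4HA2. GAPDH, CA12 and ADM lay below in all 3, against 4.61% of all genes. These 2 counts depended on the scaling: median-of-ratios gave 5 above (8.98% of all genes) and 6 below (9.36%), and scaling without mitochondrial genes 7 above (13.0%) and 5 below (6.29%). The 4 genes named as above and the 3 as below kept their side under both. ALDOC alone was above in A2ko and below in the other 2, against 4.95% of all genes. These counts share the Control libraries.

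With each knockout group as 1 value, 3 knockouts against 3 Control libraries, limma called none of the 39 genes at an adjusted p under 0.05, against 1.03% of all genes, and 10 had an unadjusted p under 0.05 (16.0% of all genes). P4HA2 had the smallest, a mean difference of 0.97 (SE 0.19, limma adjusted p = 0.0796). CA9 had a mean difference of 0.67 with an SE of 0.57 (limma adjusted p = 0.601), since A2ko lay on the other side of Control. With the A2ko group left out, 13 of the 39 passed, against 11.7% of all genes. These were CA12, which was lower, and SLC16A3, HK2, PFKP, PFKFB4, LDHA, KDM3A, CA9, VEGFA, ANGPTL4, BNIP3, P4HA1 and P4HA2, which were higher.

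**Figure D4:**
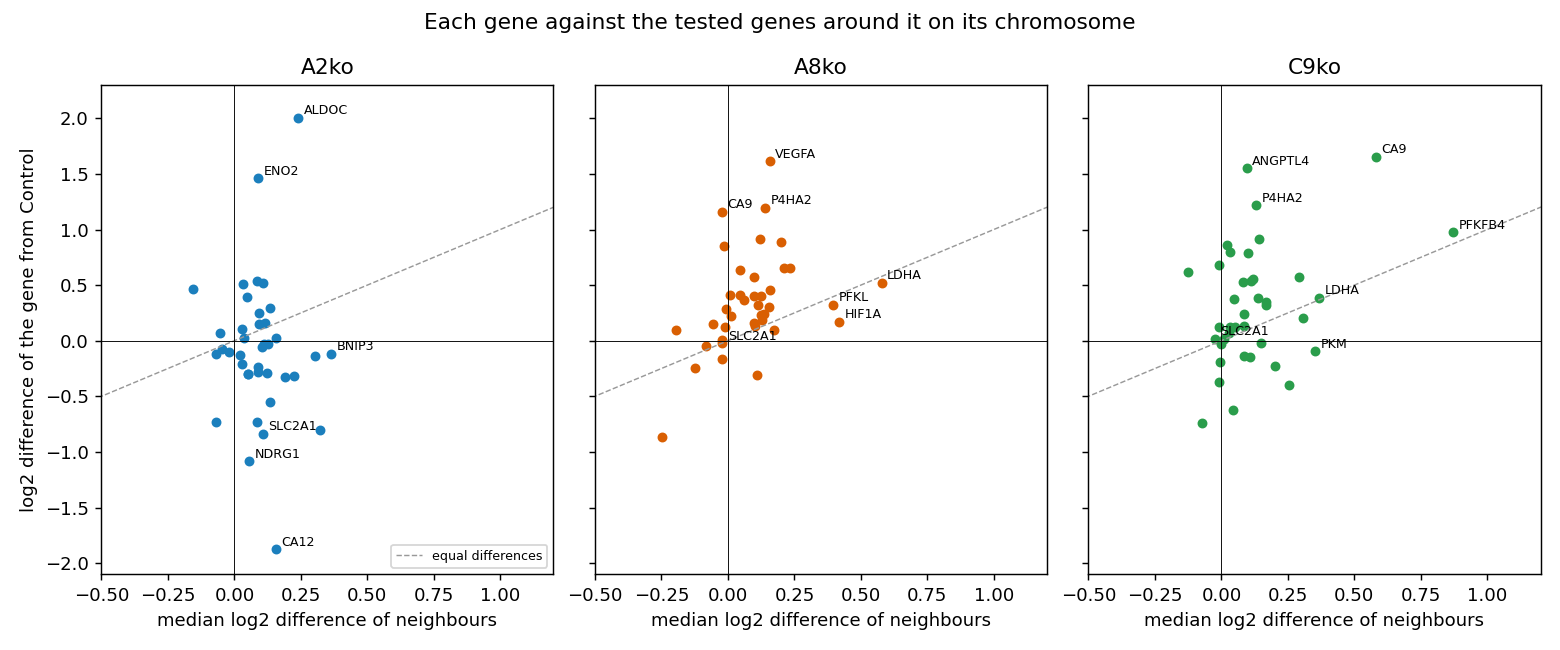
Log2 difference from Control of each of the 39 tested genes (vertical axis) against the median difference of the 20 tested genes nearest to it on its chromosome (horizontal axis), 1 panel per knockout. Points on the dashed line differ as much as their neighbours, as PFKFB4 does in C9ko and LDHA in A8ko, while VEGFA and P4HA2 lie far above it in A8ko.

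Whether stretches of chromosome moved with the genes was read from their neighbours. Of the 17 genes that rose in C9ko, 2 sat in a stretch whose median difference was at least 0.5, CA9 and PFKFB4. LDHA, in a stretch under that cut, rose in C9ko about as much as its neighbours. It differed by 0.38, against a median of 0.37 for its 20 neighbours, of which 10 were called higher. Around VEGFA in A8ko the median was 0.16, around P4HA2 0.14 in A8ko and 0.13 in C9ko, and around BNIP3 0.20 and 0.14. Around ALDOC and ENO2 in A2ko it was 0.24 and 0.09. VEGFA, P4HA2, BNIP3, ALDOC and ENO2 thus differed from Control by more than their neighbours did in these knockouts. DNA copy number was not measured, and its part in the results was not tested.

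A further 76 genes of glycolysis, pyruvate entry, the pentose phosphate pathway and the HIF system were listed for comparison, and 64 could be tested. In C9ko 31 of them were called, 25 higher and 6 lower, against 29.5% of all genes. Of the 25, 6 sat in a stretch whose neighbours had a median C9ko difference of at least 0.5, some hypoxia targets among them. Among 26 other hypoxia targets, 12 rose and 3 fell, against 22.0% and 7.42% of all genes. None of the 3 fell by as much as 1 log2 unit, the cut for naming a gene here. STC1, which encodes the secreted glycoprotein stanniocalcin 1, was at 1.12, 1.04 and 0.761 TPM in Control, 0.687 TPM in A2ko, 2.48 TPM in A8ko, and 8.58 and 6.89 TPM in C9ko, a C9ko rise of 2.14 (SE 0.15, limma adjusted p = 0.000133). BHLHE41, a clock-linked transcriptional repressor, rose by 1.03 (SE 0.10, limma adjusted p = 0.000555). STC2, which was lower, was the 1 gene of the 64 as far out as 1 log2 unit in A2ko. Of all genes 1.53% lay as far below and 3.54% as far above. STC2 was at 5.66 TPM in A2ko against 14.2 to 14.3 TPM in Control, and it stood at 24.4 TPM in A8ko and 16.8 and 16.3 TPM in C9ko.

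Of 10 other tested genes for glycolytic isozymes, related sugar enzymes and transporters, 7 rose in C9ko, against 22.0% of all genes. The 7 were genes of transporters and related enzymes, led by the glucose carrier gene SLC2A12 (1.46, SE 0.10, limma adjusted p = 0.000139). The isozyme genes PFKFB2 (0.01, limma adjusted p = 0.926) and ENO3 (-0.13, limma adjusted p = 0.287) did not pass. Of 10 genes of the HIF machinery 3 rose, a share near that 22.0%, among them VHL, the recognition subunit for hydroxylated HIF alpha. VHL was at 15.8, 14.7 and 14.6 TPM in Control, 18.0 TPM in A2ko, 20.3 TPM in A8ko, and 32.3 and 31.8 TPM in C9ko (1.05, SE 0.07, limma adjusted p = 0.000119). Its 20 neighbours on chromosome 3 had a C9ko median of 0.82, and 16 of them were called higher. Across all 3 knockouts together, 2 of the 64 genes passed, against 1.03% of all genes, and both are named after their values were seen. PLOD2, a lysyl hydroxylase of collagen, differed by 0.83 (SE 0.13, limma adjusted p = 0.0451), and PDP1, a pyruvate dehydrogenase phosphatase, by 0.59 (SE 0.09, limma adjusted p = 0.0448).

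The culture was checked against markers. All 6 squamous epithelial markers were present. Their summed level was 14326 to 15184 TPM in Control, 4186 TPM in A2ko, 6074 TPM in A8ko, and 7957 and 7794 TPM in C9ko. This sum moved with the knockouts and was mostly from the keratins KRT5, KRT14 and KRT6A, which were lower in every knockout library. CDH1 was above Control in every knockout library. TP63 was below Control in A2ko and A8ko and above it in C9ko. EPCAM was below Control in A2ko and above it in A8ko and C9ko. Of 5 leukocyte markers 4 stayed under 1 TPM in every library. The summed level of the 5, nearly all from CD68, was 28.1 to 32.5 TPM in Control, 36.5 TPM in A2ko, 66.6 TPM in A8ko, and 14.3 and 14.5 TPM in C9ko. Of 4 endothelial markers 3 stayed under 1 TPM, and their sum, nearly all from CDH5, was 3.51 to 4.55 TPM in Control, 12.8 TPM in A2ko, 8.63 TPM in A8ko, and 22.2 and 30.1 TPM in C9ko. Both sums thus moved with the knockouts. Of 6 fibroblast markers 3 stayed under 1 TPM in every library. The sum of the 6 was 10.8 to 12.2 TPM in Control, 17.7 TPM in A2ko and 7.36 TPM in A8ko. In C9ko it was 11.0 and 11.8 TPM, inside the Control range. The part of these differences in the results above was not tested.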

How the data were processed

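Bulk RNA-seq was analysed from 9 deposited files, 3 Control and 2 for each of 3 knockouts. The authors deposited TPM values per Ensembl gene, and each file sums to about 1000000. The A2ko library summed to 129.8 TPM above that total, and the other libraries matched it closely. A2ko also had 16716 genes at 1 TPM or more, against 15556 to 15954 in the other libraries. Why A2ko differed, and its part in the A2ko results, was not tested. The genome build was hg38, per the submitters' processing notes. The aligner, the quantification tool and the annotation are not given in the sources used here, and depth is unknown because TPM keeps none. Symbols came from a separate list of gene names, positions from GENCODE 29 and promoters from RefSeq (GRCh38.p14). Values were analysed as log2(TPM + 1) for genes at 1 TPM or more in at least 2 distinct libraries (17100 genes) with limma 3.58.1 in R 4.3.3 (eBayes with trend, Benjamini-Hochberg over all 17100 genes). The C9ko fit used all 4 groups. A2ko and A8ko, each 1 library, were counted as apart when outside the Control range and 1 log2 unit or more away from the mean of Control. The method was tested on simulated data. Neighbours are the 10 tested genes on each side. The genes, the comparison lists and the tests were chosen with earlier results of these data known. All 40 genes were accounted for by group, with full values for those called in a test, those apart in A2ko or A8ko, and the most abundant of each group. Comparison genes were named when called with at least 1 log2 unit and a mean of at least 5 TPM, or when apart in A2ko or A8ko, at most 4 per direction. PLOD2, PDP1, PFKFB2, ENO3 and the genes under other observations were named after their values were seen. Alternatives were another pseudocount, other filters, other scalings, a replicate block, fits without trend and leaving out each library or group. One result among the comparison genes is not reported here.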

Additional observations from a re-analysis of the deposited data

Results flagged for a closer look

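CA9 and PFKFB4 were singled out because A2ko lay below all Control libraries and both A8ko and C9ko lay above them, each by at least 0.5 log2 units. By any amount, 10 of the 39 genes had this pattern, against 7.26% of all genes. The share of all genes past the cut of 0.5 was not counted. The gaps below come from the same values that singled the genes out. For CA9 the gap between the A2ko and C9ko differences was 2.46 log2 units, from 9.99 TPM in A2ko to 58.2 and 60.6 TPM in C9ko. For PFKFB4 it was 1.71 log2 units, from 4.75 TPM in A2ko to 16.9 and 18.8 TPM in C9ko. The neighbours of PFKFB4 had a median C9ko difference of 0.87, against 0.97 for the gene. Those of CA9 had a median of 0.58, against 1.65 for the gene. The difference between knockouts was not tested, since A2ko and A8ko are 1 distinct library each.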

How the results depend on the processing

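Of the 21 genes called in C9ko, 14 kept their call and direction under every alternative in which they were tested, and none reversed. ANGPTL4 and CA12, counted among the 14, were not tested under the filter of a mean of at least 5 TPM, which removed them. EGLN1, HIF1A, PFKFB3, ADM, LDHA, PGK1 and NDRG1 lost it under at least 1, with adjusted p-values up to 0.228. Leaving out 1 library at a time gave 16 to 20 genes called in C9ko and, over all genes, 3301 without the second C9ko library against 5038. The labels do not say that replicate numbers pair samples, and same-numbered Control and C9ko libraries did not deviate together (r = -0.053 and -0.012 across genes). A replicate block called 15 of the 21 and 3248 of all genes. Median-of-ratios scaling gave medians of -0.23 for A2ko, 0.20 for A8ko and 0.11 for C9ko, and scaling without mitochondrial genes 0.23 in A8ko and 0.14 in C9ko. With a pseudocount of 0.1, 5 genes were apart in A8ko (ANGPTL4 and CA12 added). For all knockouts, leaving out A2ko gave 13 genes and 1993 over all genes against 176, and leaving out 1 Control library 5 to 11, no filter 23 and leaving out C9ko 67. The cause was not tested. TPM keeps no depth, so counting error could not be set against these differences.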

Other observations

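Genes of the pentose phosphate pathway, a branch of sugar metabolism beside glycolysis, were also followed in C9ko. The genes named here were chosen after their values were seen. PGD fell by 0.27 (SE 0.08, limma adjusted p = 0.0496), and TALDO1, transaldolase, fell by 0.27 (SE 0.07, limma adjusted p = 0.0255). TALDO1 was at 266.6, 253.6 and 274.1 TPM in Control, 196.7 TPM in A2ko, 175.7 TPM in A8ko, and 210.6 and 228.1 TPM in C9ko, so all 4 knockout libraries were below Control. PGD was also below Control in all 4. TKT, transketolase, rose by 0.64 in C9ko (SE 0.07, limma adjusted p = 0.000828), and its 20 neighbours on chromosome 3 had a median of 0.80, while it was below Control at 228.2 TPM in A2ko and 227.5 TPM in A8ko. Of 11 genes of pyruvate entry into mitochondria, PDHB and PDP1 rose in C9ko, against 22.0% of all genes, and none fell, against 7.42%. PDHB rose by 0.87 (SE 0.12, limma adjusted p = 0.0025), and its 20 neighbours on chromosome 3 had a median of 0.90, with 15 called higher.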
